A study of Rattus norvegicus with 12 samples.

Results

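The hair shaft keratins and the keratin-associated proteins (KAPs) were followed in wound tissue of diabetic rats, over 4 treatments and 3 days. The members are 42 of the 25620 genes in the deposited count table, chosen by name alone. They are the 7 type I hair keratins (*Krt31*, *Krt32*, *Krt33a*, *Krt33b*, *Krt34*, *Krt35*, and *Krt36*), the 6 type II hair keratins (*Krt81* to *Krt86*), and all 29 genes whose symbol is *Krtap* followed by a number. Male SD rats were made diabetic with streptozotocin (STZ), and each received a circular full-thickness punch wound on the shaved back. The wounds were treated with normal saline (control), with dried mucus gel of the snail *A. fulica* (d-SMG), with the sulfated glycosaminoglycan of that mucus (s-GAG, labelled GAG), or with a commercial alginate dressing (Alg), and skin was taken on day 3, 7, and 14. Stranded, rRNA-depleted total RNA was sequenced as paired reads, with 1 library for each treatment and day, 12 in all. The labels do not say whether a library is 1 rat or a pool, so that no difference on a single day has a replicate check. STZ rats model the loss of insulin and not every feature of a human diabetic ulcer, and shaving does not remove the follicles at the wound edge.

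A growing follicle builds the hair shaft from keratinocytes of the matrix above the dermal papilla. Each hair keratin filament pairs a type I with a type II keratin, and the genes are switched on in order as a cell climbs. *Krt35* and *Krt85* are known as the earliest hair keratins, of matrix and lower cortex, and are followed by the keratins of the cortex and by *Krt32* and *Krt82* of the cuticle. KAPs come last and crosslink the filaments through cysteine, or are rich in glycine and tyrosine. The inner root sheath, which moulds the shaft, uses other keratins and trichohyalin. These genes are known from hair, nail, and tongue papillae, and not as genes of granulation tissue.

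Between 13748887 and 38302461 reads fell on genes in a library. A list of 14 markers of basal and suprabasal keratinocytes was detected in full in every library, and its summed FPKM (a read level corrected for gene length and library size) was 2361 to 15163 in 11 of the 12 libraries. In the library labelled d-SMG day 3 it was 17.4, and the summed FPKM of 14 skeletal muscle markers was 56324, higher than the 2246 to 39938 of the others. The library s-GAG day 14 held 69.1 FPKM summed over 7 melanocyte markers, against at most 11.8 elsewhere, and had the lowest sum of 7 leukocyte markers, 214 FPKM. The fits over days are given with and without these libraries.

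The control libraries held almost no hair shaft transcripts, and the dressed libraries held from 0.73 to 3587 FPKM in all. Summed over the 42 genes, the control was at 0.59 FPKM on day 3, 2.11 on day 7, and 12.9 on day 14, which rest on 20, 51, and 412 reads. The d-SMG libraries were at 0.73, 176, and 157 FPKM on the same days. The s-GAG libraries were at 803, 370.3, and 904 FPKM, and s-GAG was the sole treatment at or above 370.3 FPKM on all 3 days. The Alg libraries were at 214, 22.4, and 3587 FPKM, so that Alg held both the lowest dressed value on day 7 and the highest value of all. On each day the control library had the lowest sum, and d-SMG day 3 lay next to its control with 17 reads against 20. With 1 library a group there is no spread between animals to set against the order of the libraries. In bulk tissue, fewer follicles and less RNA per follicle cannot be told apart.

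**Figure D1:**
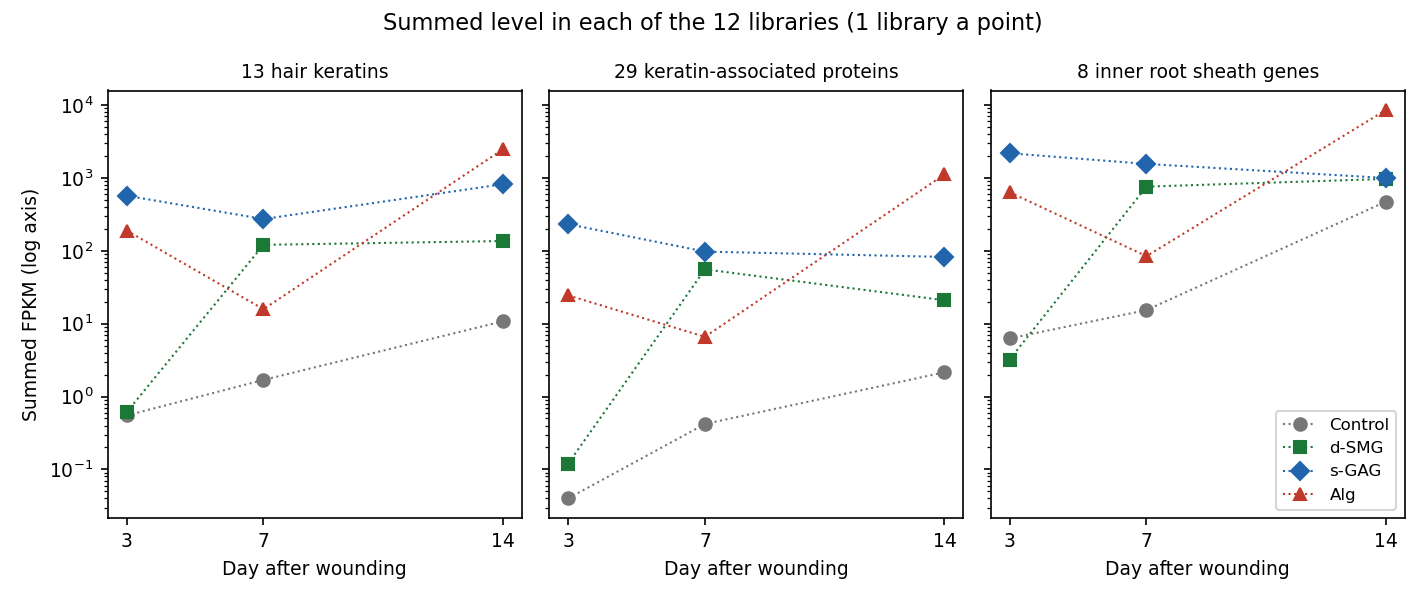
Summed FPKM (log axis) of the 13 hair keratins, the 29 KAPs, and 8 inner root sheath genes against the day after wounding, with 1 point for each library and dotted lines joining the libraries of a treatment. The control lies lowest for the hair keratins on all 3 days, and Alg moves from 214 FPKM over the 42 genes on day 3 to 22.4 on day 7 and 3587 on day 14.

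The promoters of these genes are shown because the members lie on few chromosomes, and no relation of position to level was tested. The type I keratins and 14 KAPs are on chromosome 10, the type II keratins on chromosome 7, 13 KAPs on chromosome 11, *Krtap5-1* on chromosome 1, and *Krtap12-2* on chromosome 20. RefSeq (GRCr8) held a promoter entry of 250 bases before to 50 after the start for 33 of the 42. TATAAA on either strand was found in 25 of them (75.8%), against 14.2% of all 33469 promoters. TATAAA on the gene strand, beginning 40 to 20 bases before the start, was found in 9 (27.3%), against 1.37% of all. CTTTGAA or CTTTGAT on either strand, the letters that LEF1 and TCF proteins are known to bind, were found in 11 (33.3%), against 8.73% of all. No match of either motif overlapped a match of the other in a member. The 250 bases before the start are given for the early keratins *Krt35* and *Krt85*, for *Krt31* of the cortex, for *Krt32* of the cuticle, and for *Krtap7-1*, the KAP with the highest level. They lie at chr10:85529969-85530218, chr7:134515787-134516036, chr10:85483301-85483550, chr10:85520979-85521228, and chr11:42227231-42227480, all on the minus strand, and are written on the gene strand with the motif letters in capitals.
Krt35: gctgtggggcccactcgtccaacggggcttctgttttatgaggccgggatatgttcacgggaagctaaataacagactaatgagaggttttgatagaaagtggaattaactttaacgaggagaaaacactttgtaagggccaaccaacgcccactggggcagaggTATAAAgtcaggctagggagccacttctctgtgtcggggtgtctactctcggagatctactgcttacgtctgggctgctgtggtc
Krt85: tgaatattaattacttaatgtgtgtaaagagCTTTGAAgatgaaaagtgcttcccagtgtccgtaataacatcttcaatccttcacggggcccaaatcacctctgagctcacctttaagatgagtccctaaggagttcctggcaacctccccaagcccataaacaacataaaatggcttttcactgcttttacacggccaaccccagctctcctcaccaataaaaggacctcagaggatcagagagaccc
Krt31: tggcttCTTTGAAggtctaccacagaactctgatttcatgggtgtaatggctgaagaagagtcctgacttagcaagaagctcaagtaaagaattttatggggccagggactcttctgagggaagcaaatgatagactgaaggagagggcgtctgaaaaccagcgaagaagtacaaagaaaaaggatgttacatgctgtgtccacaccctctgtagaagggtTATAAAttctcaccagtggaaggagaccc
Krt32: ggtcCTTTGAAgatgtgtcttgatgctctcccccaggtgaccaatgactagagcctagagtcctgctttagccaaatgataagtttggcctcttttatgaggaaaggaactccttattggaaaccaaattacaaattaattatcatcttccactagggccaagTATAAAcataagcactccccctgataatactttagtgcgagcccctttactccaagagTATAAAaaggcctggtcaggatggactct
Krtap7-1: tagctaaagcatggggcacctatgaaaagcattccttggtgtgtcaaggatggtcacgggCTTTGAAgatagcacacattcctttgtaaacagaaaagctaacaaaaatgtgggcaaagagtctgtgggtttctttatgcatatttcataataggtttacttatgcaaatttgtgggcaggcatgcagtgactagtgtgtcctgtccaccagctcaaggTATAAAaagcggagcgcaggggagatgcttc
In *Krt31*, *Krt32*, and *Krt36* the CTTTGAA begins 244, 246, and 246 bases before the start, and in *Krt34* 239 and 132 bases before it. The TATAAA nearest to the start begins 29 bases before it in *Krt31* and *Krt32*, 31 in *Krt34*, *Krtap7-1*, and *Krtap17-1*, and 85 in *Krt35*. A match describes the letters in these windows and not a bound factor. Related members were counted as separate promoters, so that the shares do not rest on independent sequences.

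The early keratins led the levels in most libraries. *Krt35*, the type I keratin of matrix and lower cortex, had 2, 4, and 44 reads in the control libraries of day 3, 7, and 14. It had 3, 885, and 1631 reads with d-SMG, 2932, 5593, and 12121 with s-GAG, and 2416, 69, and 4308 with Alg. Every dressed library except d-SMG day 3 lay above all 3 control libraries. Per length, *Krt35* was at most 1.45 FPKM in the control, 33.8 and 77.3 FPKM with d-SMG on day 7 and 14, 97.4 to 420 FPKM with s-GAG, and 2.91 to 197 FPKM with Alg. It was the first of the 42 genes by FPKM in 7 of the 12 libraries.

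*Krt85*, the type II keratin of the same cells, had 1, 8, and 101 reads in the control and 3, 660, and 885 reads with d-SMG. It had 3684, 4689, and 4371 reads with s-GAG and 1902, 39, and 8638 with Alg. The control of day 14 lay above the Alg library of day 7, so that the groups overlapped over days. Its FPKM was 119, 62.5, and 116 with s-GAG and reached 303 with Alg on day 14.

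The cortex keratins form the bulk of the shaft, and their sum of 8 genes was highest with Alg on day 14, at 1784 FPKM. *Krt31*, the type I partner in the cortex, had 1, 5, and 62 reads in the control and 4, 448, and 194 with d-SMG. It had 2299, 2151, and 2965 reads with s-GAG and 537, 56, and 11498 with Alg. With Alg on day 14 it was the first member by level, at 475 FPKM against 92.8 with s-GAG and 8.31 with d-SMG.

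*Krt34* had 22 reads in the control of day 14, 25 with d-SMG, 338 with s-GAG, and 5829 with Alg, so that d-SMG lay close to its control on that day. *Krt86*, a type II cortex keratin, had 34, 58, 585, and 8733 reads in the same libraries. *Krt33a*, *Krt33b*, *Krt81*, and *Krt83* had 15, 14, 10, and 26 reads in that control and 3401, 4339, 4740, and 5220 with Alg. These 4 and *Krt86* resemble close neighbours in sequence, and how reads that fit several copies were counted is not given in the sources used here, so that their split is uncertain. *Krt36* had at most 5 reads in a control and at most 420 reads, in s-GAG day 14.

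The cuticle keratins kept no common ratio. *Krt32*, the type I keratin of the cuticle, had 1, 8, and 42 reads in the control, 0, 263, and 177 with d-SMG, 1220, 922, and 3267 with s-GAG, and 582, 30, and 3241 with Alg. *Krt82*, its type II partner, had at most 7 reads in a control, at most 66 with d-SMG, 182, 78, and 58 with s-GAG, and 46, 3, and 1525 with Alg. On day 14 the s-GAG and Alg libraries were thus alike in *Krt32* reads and far apart in *Krt82* reads. Within a library, *Krt32* had 2.13 reads for each *Krt82* read in Alg day 14 (exact 95% interval 1.999 to 2.26) and 56.3 in s-GAG day 14 (43.5 to 74.3). All intervals given here cover the counting error only.

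*Krt84*, known from the filiform papillae of the tongue and from nail, had 0, 1, and 3 reads in the control. It had 0, 43, and 28 reads with d-SMG, 148, 458, and 96 with s-GAG, and 40, 101, and 399 with Alg. In Alg day 7 it made up 14.2% of the summed hair keratin FPKM, and it made up at most 1.54% in the other 11 libraries. *Krt84* was second by FPKM in that library, at 2.24 FPKM against 2.91 for *Krt35*, and 532 reads fell on the 42 genes there.

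The KAPs, which crosslink keratin filaments, were nearly silent in the control. Over all 29 genes the control libraries held 1, 6, and 27 reads, where a count of 0 allows up to 3 reads, so that a KAP at 0 there was not detectable rather than shown absent. *Krtap7-1*, a glycine- and tyrosine-rich KAP by family, had 0, 0, and 3 reads in the control, 0, 176, and 38 with d-SMG, 492, 488, and 209 with s-GAG, and 54, 13, and 2686 with Alg. *Krtap3-3* had at most 5 reads in a control, and 246, 201, and 54 reads with s-GAG against 15, 7, and 852 with Alg. *Krtap17-1* had at most 3 reads in a control, 300, 178, and 128 with s-GAG, and 37, 3, and 1862 with Alg. All 3 were highest with Alg on day 14, at 273, 178, and 123 FPKM, and they have the highest mean FPKM of the 29.

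The rest of the KAPs had a lower mean FPKM, though not all had fewer reads. *Krtap1-5*, *Krtap3-2*, *Krtap5-1*, *Krtap8-1*, *Krtap11-1*, *Krtap16-5*, and *Krtap15-1* reached 370 to 1142 reads in Alg day 14. *Krtap2-1*, *Krtap2-4l*, *Krtap9-7*, *Krtap13-2*, *Krtap20-1*, and *Krtap27-1* never exceeded 24 reads, so that their ratios rest on few counts. *Krtap27-1* had 2 reads in d-SMG day 7, 10 in Alg day 14, and 0 elsewhere. *Krtap20-1* was highest in s-GAG day 7, with 11 reads. *Krtap9-7* is annotated as misc_RNA in the deposited table. By FPKM, 39 of the 42 genes were highest in Alg day 14, *Krt35* and *Krt36* in s-GAG day 14, and *Krtap20-1* in s-GAG day 7. By reads scaled with TMM (trimmed mean of M-values) 38 were highest in Alg day 14, and *Krt32*, which lies between *Krt31* and *Krt35* on chromosome 10, was highest in s-GAG day 14.

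**Figure D2:**
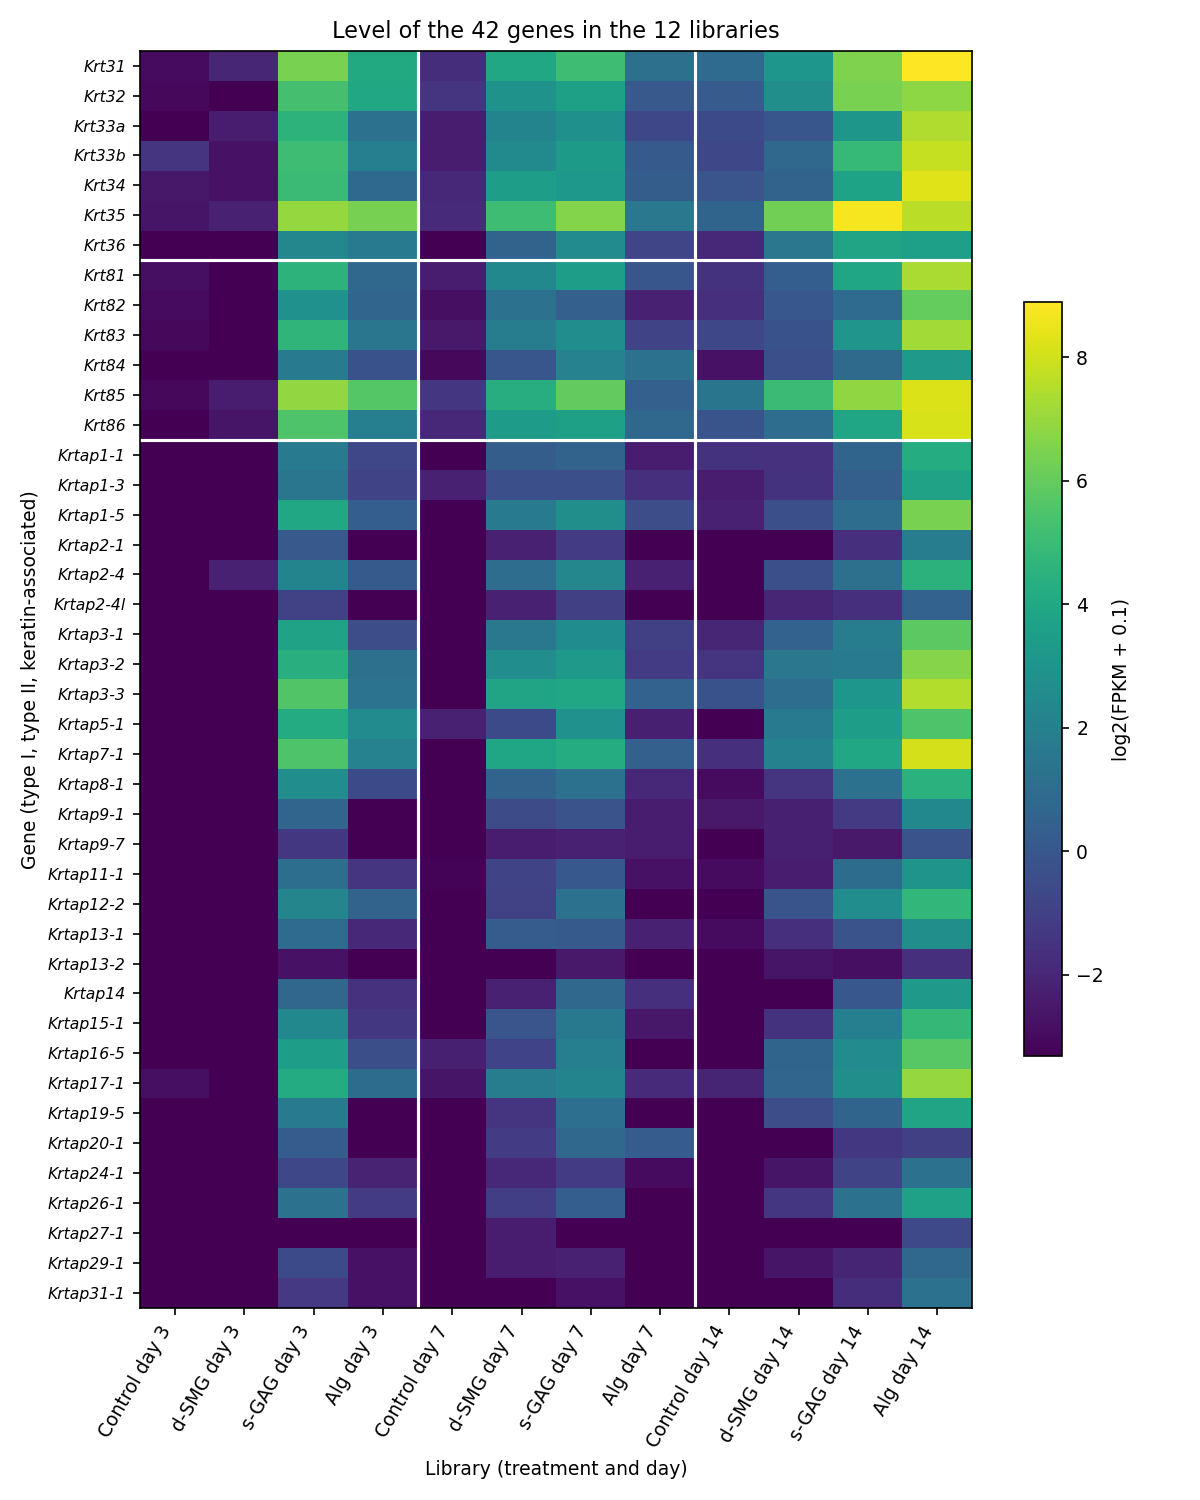
log2(FPKM + 0.1) of the 42 genes (rows, with white lines between the type I keratins, the type II keratins, and the KAPs) in the 12 libraries (columns, with white lines between days). *Krt35* is the brightest row in s-GAG day 14 at 420 FPKM, most KAPs are dark in the 3 control columns, and the last column, Alg day 14, is brightest for 39 genes.

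Each dressed library was set against the control of the same day as a ratio of TMM-scaled reads, with fewer than 3 reads set to 3 so that the ratio is a lower bound. A gene was compared where the pair held at least 10 reads, and at least 4-fold was counted as past the fold. No control library of day 3 or 7 held 10 reads of any member, and 10 members did in the control of day 14. Most members could thus be compared only through the dressed library, and had to lie above the control, so that the counts describe these pairs and give no support of their own. On day 3, 0 members could be compared with d-SMG, and 2.52% of all genes were at least 4-fold higher and 5.33% at least 4-fold lower. With s-GAG on day 3, 35 of 35 members were at least 4-fold higher (all genes 4.85% higher and 1.92% lower), with a median ratio of 67.4. With Alg on day 3, 22 of 23 were (all genes 2.86% higher and 2.1% lower), with a median of 17.9.

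On day 7, 22 of 27 members were at least 4-fold higher with d-SMG (all genes 1.34% higher and 2.05% lower) and 31 of 35 with s-GAG (all genes 4.19% higher and 3.67% lower). With Alg on that day 10 of 13 were (all genes 2.58% higher and 2.55% lower). The median ratios were 14.8, 22.4, and 6.95. On day 14, 13 of 21 members were past the fold with d-SMG (all genes 3.09% higher and 4.82% lower), 32 of 32 with s-GAG (all genes 11.3% higher and 13.2% lower), and 38 of 38 with Alg (all genes 3.15% higher and 3.69% lower). The medians were 5.43, 27.1, and 141. In no pair was a compared member below its control, and the median log2 ratio over all genes stayed between -0.046 and 0.051.

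Single ratios show the size of the differences where the control held reads. *Krt35* with d-SMG was 149 times its control on day 7 (58.1 to 549) and 47.8 times on day 14 (35.4 to 66.0). *Krt31* with d-SMG was 60.4 times its control on day 7 (25.7 to 187) and 4.03 times on day 14 (3.02 to 5.46). The later interval lies below the earlier one for *Krt31*, and the intervals overlap for *Krt35*. With s-GAG on day 14, *Krt35* was 385 times its control (286 to 530), *Krt31* 66.8 times (51.9 to 87.3), and *Krt82* 11.6 times (5.27 to 30.04). With Alg on day 14, *Krt35* was 125 times its control (92.6 to 172), *Krt31* 236 times (184 to 308), and *Krt82* 277 times (134 to 691).

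Among members that reached 100 reads in some library of a day, the highest computed ratio between 2 libraries was that of *Krt85* on day 3, where s-GAG lay at least 1677-fold above the control. It was that of *Krt35* on day 7, where s-GAG lay 528-fold above the control, and of *Krtap7-1* on day 14, where Alg lay 1139-fold above the control on 3 control reads. The lowest computed ratios were at least 51.9-fold for *Krtap16-5* on day 3, at least 12.6-fold for *Krtap1-5* on day 7, and at least 45.8-fold for *Krtap1-3* on day 14. These last are bounds set by the floor of 3 reads, and do not rank the true ranges.

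**Figure D3:**
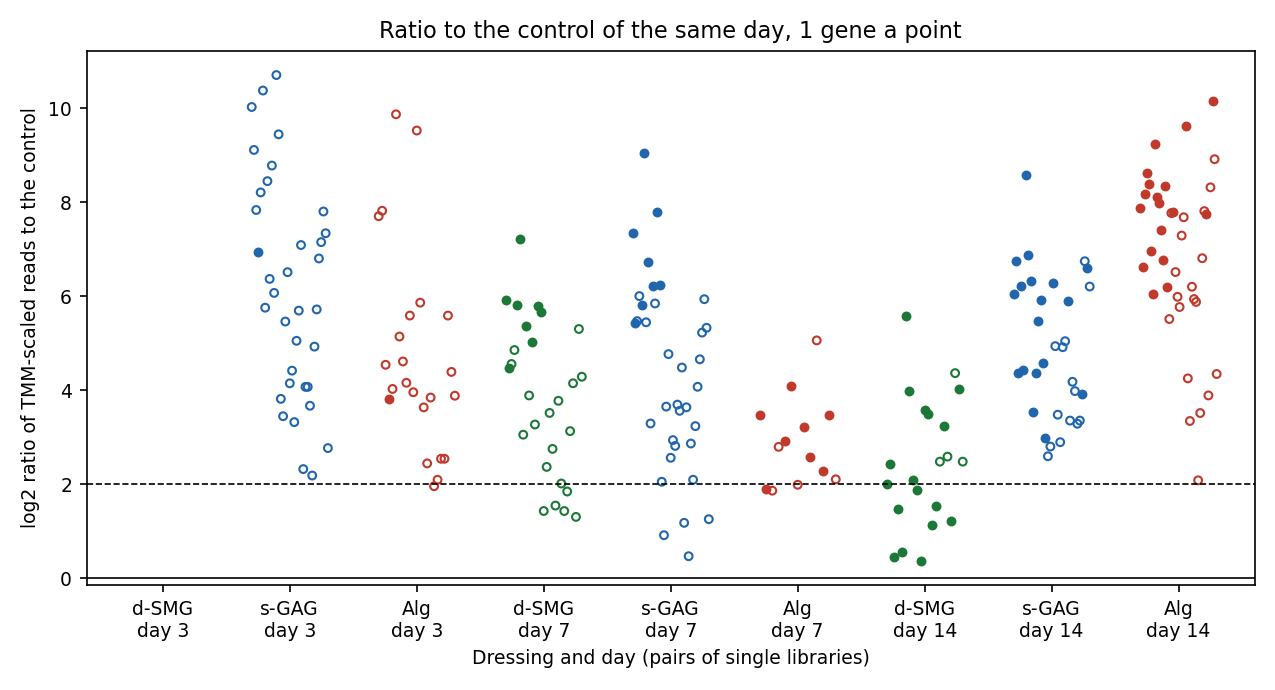
log2 ratio of TMM-scaled reads to the control of the same day for each compared gene, by dressing and day, with filled points for values, open points for lower bounds on fewer than 3 reads, a solid line at 0, and a dashed line at 4-fold. No member could be compared for d-SMG on day 3, no point lies below 0, and Alg day 14 has the highest median ratio, 141.

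Over the 3 days, with days as the replicates of a treatment, no member passed the test. A quasi-likelihood fit in edgeR, which held treatment and day, called 0 of the 35 members that passed the low-count filter, and 0 of 16110 genes (0.0%), in each of the 3 comparisons with the control at an adjusted p under 0.05. For s-GAG, 35 of 35 members had an unadjusted p under 0.05, against 9.26% of all genes. For Alg they were 35 of 35 against 3.12%, and for d-SMG 11 of 35 against 1.35%. Members that pass this filter do so mostly through the dressed libraries, which forces their direction. DESeq2 called 31, 23, and 1 of the 35 members for s-GAG, Alg, and d-SMG, the last being *Krt35*, and 1.8%, 0.546%, and 0.0559% of all 16110 genes. With only the groups compared in the fit, edgeR called 4 members for s-GAG (*Krt33b*, *Krt35*, *Krt36*, and *Krt81*), against 0.076% of all genes. It then called 5 for Alg (*Krt84*, *Krtap3-2*, *Krtap3-3*, *Krtap7-1*, and *Krtap8-1*), against 0.0581%.

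The fitted log2 fold changes were large and so were their errors. The median over the 35 members was 7.89 for s-GAG, 7.11 for Alg, and 4.38 for d-SMG, against 0.0021, -0.027, and -0.030 over all genes. *Krt84* had the smallest adjusted p of the members for s-GAG, at a log2 fold change of 7.54 ± 1.26 (SE, adjusted p = 0.245, edgeR). *Krt35* was at 9.18 ± 1.88 (SE, adjusted p = 0.417, edgeR) for s-GAG, 7.81 ± 1.83 for Alg, and 6.16 ± 1.70 for d-SMG, the latter both at an adjusted p of 1 in edgeR. *Krtap7-1* was at 9.80 ± 2.65, 9.11 ± 2.64, and 6.63 ± 2.67 for the same comparisons. On the scale of log2(FPKM + 1), in limma, the medians were 2.83, 2.28, and 0.83. Without Alg day 14 the Alg median was 3.67 and 15 of 32 members had an unadjusted p under 0.05, beside 641 of 16081 genes. Without s-GAG day 14 the s-GAG median was 9.46. The d-SMG median was 5.41 without d-SMG day 3 and 2.35 without the libraries of day 7, where 33 of 35 members were positive. Without d-SMG day 3, edgeR called 3 members for s-GAG, namely *Krt35*, *Krt36*, and *Krt84*, and 0.41% of all genes.

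Between days, with treatments as the replicates, edgeR called 0 members and 0 of 16110 genes (0.0%) in each comparison, and DESeq2 called 0 members and 0.0%, 0.242%, and 0.0435% of all genes for day 7 against day 3, day 14 against day 3, and day 14 against day 7. The median log2 fold change over the 35 members was 0.65 for day 7 against day 3, 2.73 for day 14 against day 3, and 2.17 for day 14 against day 7. An unadjusted p under 0.05 was reached by 0, 3, and 2 members, against 1.81%, 4.95%, and 3.12% of all genes. The 3 were *Krt31*, *Krt36*, and *Krt84*, and the 2 were *Krt36* and *Krtap12-2*. The medians moved with the libraries used. Day 7 against day 3 was at -0.32 without d-SMG day 3, -1.06 without all d-SMG libraries, 3.03 without s-GAG, and -0.61 without the treatment term. Day 14 against day 7 was at 0.18 without Alg day 14, -0.23 without all Alg libraries (11 of 32 members positive), and 4.36 without d-SMG. Day 14 against day 3 was at 0.44 without Alg day 14 and 4.85 without s-GAG. In the latter fit, 19 of 29 members had an unadjusted p under 0.05, beside 1594 of 15845 genes.

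The make-up of the hair keratin level also differed between libraries. The early keratins *Krt35* and *Krt85* gave 80.3% of the summed hair keratin FPKM in d-SMG day 14, 71.6% in Alg day 3, 65.2% in s-GAG day 14, and 58.6% in s-GAG day 7. They gave 44.0% in d-SMG day 7, 42.6% in s-GAG day 3, 37.1% in control day 14, 26.4% in Alg day 7, and 20.2% in Alg day 14. The 8 cortex keratins went the other way, from 13.8% in d-SMG day 14 to 72.2% in Alg day 14. Both are shares of the same sum, so that this is not a separate result. Counted as reads, the early share was 79.0% (exact 95% interval 77.6 to 80.4) in d-SMG day 14 and 20.8% (20.5 to 21.2) in Alg day 14. It was 37.7% (32.8 to 42.7) in control day 14, between the dressed libraries of that day.

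The same shift is seen in a single pair of genes, which are parts of these sums and give no separate support. *Krt35* had 8.41 reads for each *Krt31* read in d-SMG day 14 (7.24 to 9.81), 4.09 in s-GAG day 14 (3.93 to 4.26), and 0.375 in Alg day 14 (0.362 to 0.388). The control of day 14 was at 0.710 (0.471 to 1.06), on 44 and 62 reads. On day 3 the ratio was 1.28 (1.21 to 1.35) with s-GAG and 4.499 (4.096 to 4.949) with Alg. Alg thus held a higher ratio than s-GAG on day 3 and a lower one on day 14. Whether this is so in other animals cannot be told from 1 library each.

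KAPs gave 31.1% of the summed member FPKM in Alg day 14, 31.5% in d-SMG day 7, and 28.9% in s-GAG day 3. They gave 9.12% in s-GAG day 14, 13.3% in d-SMG day 14, and 11.4% in Alg day 3, and 26.3% in s-GAG day 7 and 16.6% in control day 14. By reads, the KAP share was 5.26% (5.003 to 5.533) in s-GAG day 14 and 15.7% (15.48 to 16.01) in Alg day 14. Early and KAP shares are parts of overlapping sums, and their relation was not tested.

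**Figure D4:**
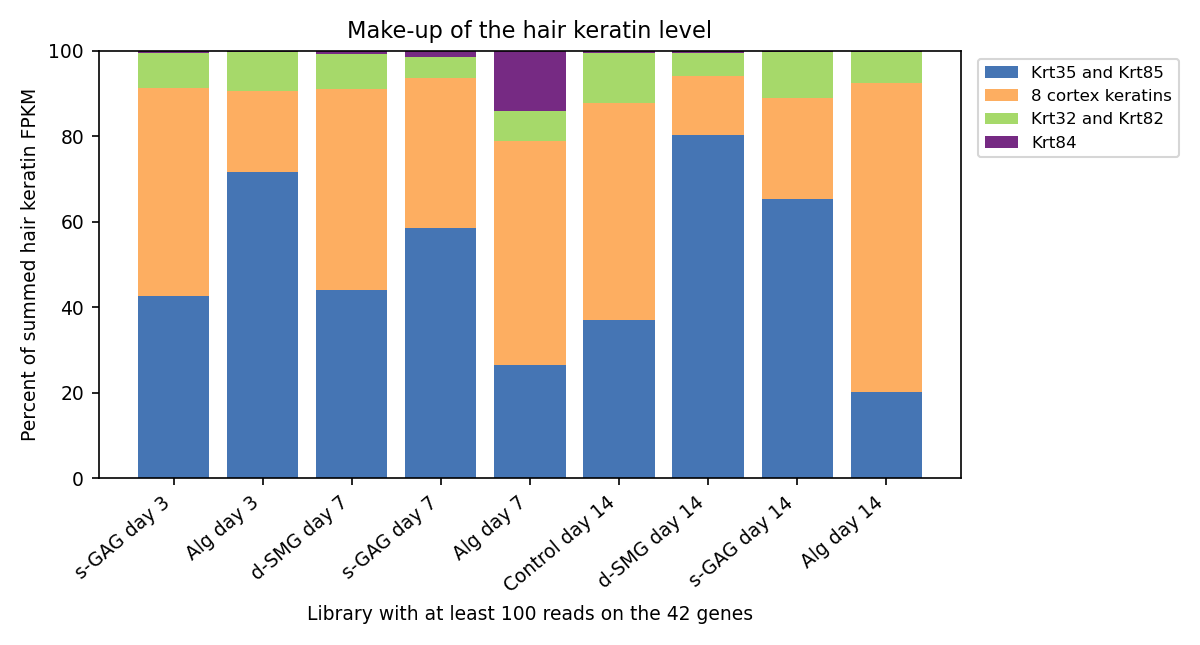
Percent of the summed hair keratin FPKM given by *Krt35* and *Krt85*, by 8 cortex keratins, by *Krt32* and *Krt82*, and by *Krt84*, in the 9 libraries with at least 100 reads on the 42 genes. The share of *Krt35* and *Krt85* spans 20.2% in Alg day 14 to 80.3% in d-SMG day 14, and *Krt84* is visible at 14.2% in Alg day 7.

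The s-GAG and Alg libraries held the largest sums and were set against each other on each of day 3 and 14, a pair chosen after the values were seen and given without a test. On day 3 all 35 compared members were higher with s-GAG, by 1.42 times for *Krt35* to 19.6 times for *Krtap3-1*, with a median of 6.55. At least 10 reads were held by 35 members in s-GAG day 3 and by 23 in Alg day 3. The rest were compared mostly through the s-GAG library, which forces their direction. On day 14, 36 of 39 compared members were lower with s-GAG, with Alg at a median of 7.21 times s-GAG. There 38 members held at least 10 reads in Alg and 32 in s-GAG, so that some were likewise compared mostly through Alg. Shares of all genes higher or lower were not computed for either pair. Against the control, s-GAG day 14 had more genes past the fold than any other dressed library, 11.3% higher and 13.2% lower. Alg was 31.3 times s-GAG for *Krtap1-5* (18.8 to 56.4), 24.0 times for *Krt82* (18.4 to 31.7), and 15.7 times for *Krt34* (14.1 to 17.6). s-GAG was 3.09 times Alg for *Krt35* (2.98 to 3.20) and 1.77 times for *Krt36* (1.51 to 2.07), and by FPKM 2.13 and 1.22 times. *Krt32* turned with the scaling, with s-GAG at 1.11 times Alg by TMM and 1.11 by RLE size factors, and Alg at 1.32 times s-GAG by library size and 1.31 by FPKM. By library size 37 of 39 members were lower with s-GAG, at a median of 10.6 times. The library s-GAG day 14 is the one with the high melanocyte and low leukocyte sums, and its TMM factor was 0.744. Genes of the keratinocyte list went both ways in it. *Krt14* was at its highest there, at 11739 FPKM, and *Dsp* was at 23.9 FPKM, against 292 to 543 in the other libraries of day 14. The part of these features in the contrast was not tested.

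**Figure D5:**
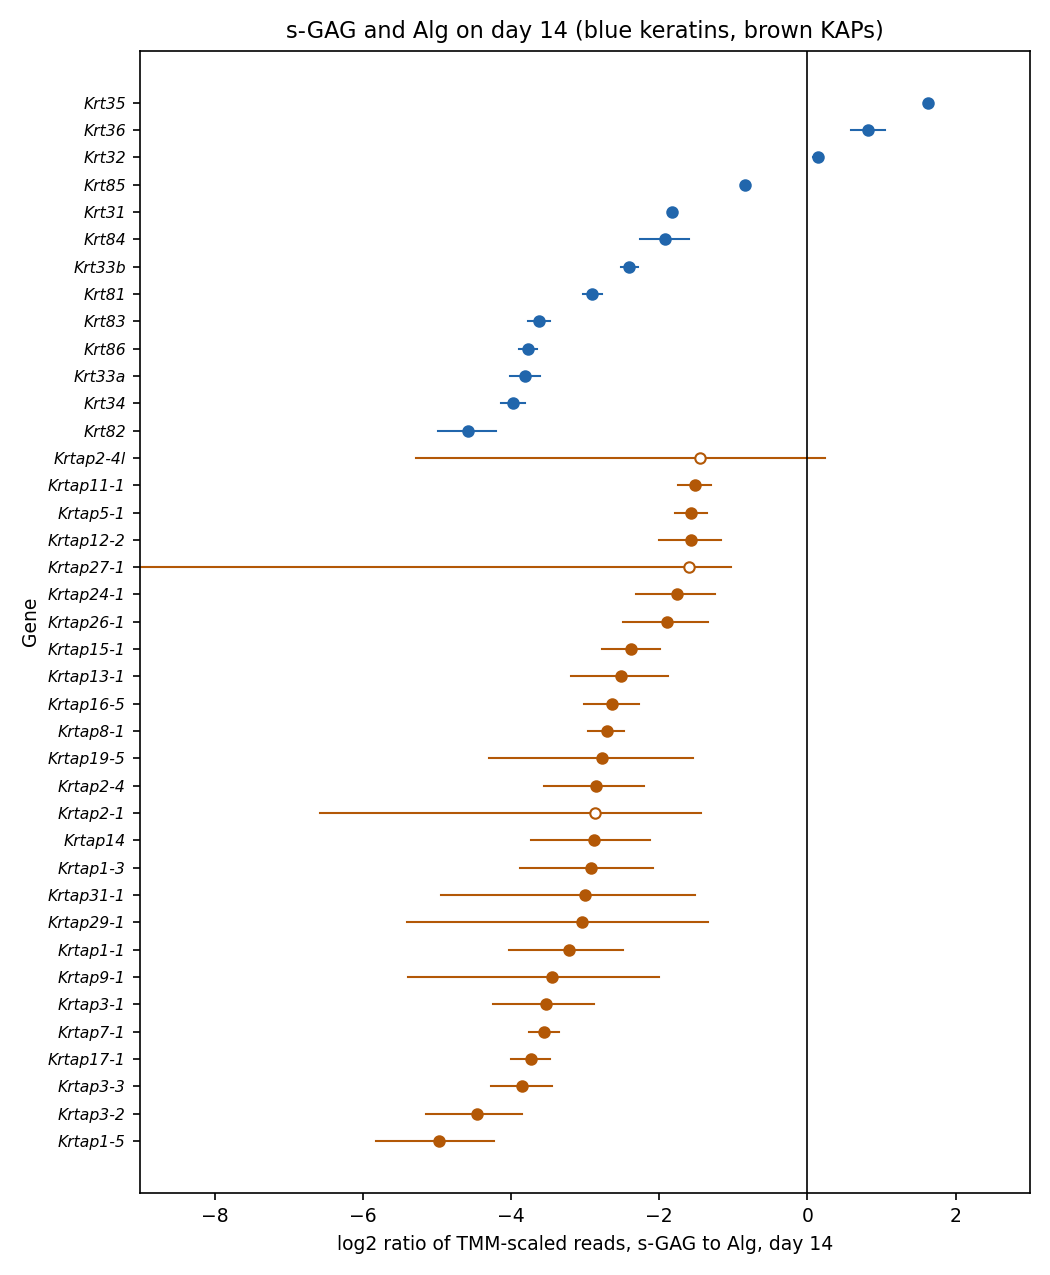
log2 ratio of TMM-scaled reads of s-GAG to Alg on day 14 for the 39 compared genes (blue hair keratins, brown KAPs), with exact 95% intervals for the counting error as lines and open points where a library had fewer than 3 reads. *Krt35*, *Krt36*, and *Krt32* lie to the right of 0, *Krt32* not so by library size or FPKM, and the KAPs lie to the left with a median of 7.25 times higher in Alg.

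The d-SMG libraries of day 7 and 14 had like sums, 176 and 157 FPKM, with another make-up. From day 7 to day 14, 10 of 13 hair keratins and 13 of 16 compared KAPs were lower, and *Krt34* was lower by 7.28 times. The share of all genes was not computed for this pair. At least 10 reads were held by 27 members on day 7 and 19 on day 14, which forces part of these counts. *Krt35* was 2.52 times higher on day 14, *Krt85* 1.83 times, and *Krt36*, of the cortex list, 2.25 times. *Krtap5-1* was 5.97 times higher, on 11 and 48 reads.

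The inner root sheath, the other product of the same follicle, was read from 7 keratins and trichohyalin (*Tchh*). Their summed FPKM was 6.27, 15.4, and 474 in the control, 3.22, 759, and 969 with d-SMG, 2182, 1556, and 998 with s-GAG, and 636, 84.3, and 8577 with Alg. The control of day 14 thus held sheath transcripts at 474 FPKM beside a hair shaft level of 12.9 FPKM. The summed member FPKM was 0.0273 of the sheath sum in control day 14, 0.162 in d-SMG day 14, 0.418 in Alg day 14, and 0.906 in s-GAG day 14. *Tchh* alone was at 370.0 FPKM in control day 14, 563 in d-SMG day 14, 6037 in Alg day 14, and 186 in s-GAG day 14. It thus gave most of the sheath sum in each of these except s-GAG day 14, and the ratios rest largely on it. With *Tchh* left out of the sums above, Alg day 14 and not s-GAG day 14 has the higher ratio of shaft to sheath. The order of these libraries thus depends on *Tchh*. *Krt71*, a type II keratin of the sheath, was at 56.9, 167, 1296, and 222 FPKM in the same libraries. Over the 3 days all 8 sheath genes had an unadjusted p under 0.05 for s-GAG and for Alg and 4 of 8 for d-SMG, and edgeR called 0 in each. Without d-SMG day 3 they were 7 of 8 for d-SMG, with 0 called, beside 827 of 16104 genes under 0.05. Without Alg day 14 they were 2 of 8 for Alg, with 0 called, beside 641 of 16081 genes under 0.05. Without d-SMG day 3 edgeR called *Krt28* of the sheath for s-GAG, beside 66 of 16104 genes.

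Regulators of the shaft were a list of 22 genes, all of which passed the filter. edgeR called 0, and 14 were higher at an unadjusted p under 0.05 for s-GAG, 8 for Alg, and 3 for d-SMG, with 0 lower in each. The median log2 fold changes were 1.81, 1.22, and 0.53. Without d-SMG day 3, 8 genes had an unadjusted p under 0.05 for d-SMG, beside 827 of 16104 genes in all. In the same fit edgeR called 5 for s-GAG, namely *Foxe1*, *Gata3*, *Lhx2*, *Msx2*, and *Ovol1*, beside 66 of 16104 genes. *Tcf3* and *Sox9* had the highest mean FPKM of the list and ranged over 11.8 to 52.9 FPKM and 1.68 to 15.3 FPKM. The symbol *Tcf3* is that of the broadly expressed E2A gene, and not of the follicle factor often called TCF3, whose symbol is *Tcf7l1*. *Lef1*, *Msx2*, *Hoxc13*, and *Foxn1*, known for their part in hair keratin transcription, were named after their values were seen. *Lef1* was at 0.28, 0.92, and 0.63 FPKM in the control, 0.09, 2.34, and 6.97 with d-SMG, 10.1, 7.12, and 12.9 with s-GAG, and 9.45, 0.85, and 10.9 with Alg. *Msx2* was at most 0.41 FPKM in the control and 15.2 FPKM in s-GAG day 14. *Hoxc13* was at 0.11 FPKM in control day 14, 1.14 with s-GAG, 2.41 with d-SMG, and 3.76 with Alg, so that the s-GAG library had the lowest dressed value of that day. This was not particular to *Hoxc13*, since *Vdr* and *Bmpr1a* of the list were also lowest there, at 0.42 and 0.72 FPKM. *Msx2* and *Tcf3* were highest in that library, and its part in these values was not tested. *Foxn1* was at most 2.04 FPKM anywhere, in Alg day 14.

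The accessory proteins of shaft and sheath were 16 genes, of which edgeR called 0. An unadjusted p under 0.05 was reached by 10 for s-GAG, 10 for Alg, and 4 for d-SMG, all higher. They were 7 for d-SMG without d-SMG day 3, beside 827 of 16104 genes. In that fit edgeR called *Pinlyp* and *Msx2* for s-GAG, beside 66 of 16104 genes. Without Alg day 14 they were 5 for Alg, beside 641 of 16081 genes. *Msx2* is also in the regulator list and *Tchh* also in the sheath list, so that these lists are not separate. *Tchhl1*, a relative of trichohyalin, was at most 5.50 FPKM in the control, and at 14.2 and 41.7 FPKM with d-SMG on day 7 and 14, 230.0 FPKM with s-GAG on day 14, and 516 FPKM with Alg on day 14. Basal and suprabasal keratinocyte markers had median log2 fold changes of 1.46 for s-GAG, 1.18 for Alg, and -0.17 for d-SMG over 14 genes, with 0 called, and 0.56 for d-SMG without d-SMG day 3. *Krt14*, the keratin of the basal layer, was at 1528 to 1969 FPKM in the control libraries and at 3518 to 11739 FPKM in the dressed ones other than d-SMG day 3, where it was at 9.99 FPKM. Over the same dressed libraries *Krt35* ranged from 2.91 to 420 FPKM. Not all markers of the list followed *Krt14*, and 10 of the 14 had a positive fold change for s-GAG, 10 for Alg, and 5 for d-SMG. On day 14 *Krt10* and *Krt1* were at 813 and 635 FPKM in the control and 664 and 581 with Alg. They were at 9.91 and 14.5 FPKM with d-SMG and 33.4 and 23.9 with s-GAG. The markers of melanocytes, muscle, fibroblasts, dermal papilla, leukocytes, and sebaceous gland had medians between -1.05 and 1.26 in these 3 comparisons, with 0 called, and their part in the hair shaft result was not tested.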

How the data were processed

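RNA sequencing of rat wound skin was taken from the tables the authors deposited for 12 libraries. The authors deposited whole-number read counts of 25620 genes, without normalization, and FPKM, scaled by the length of a gene and the size of a library, of 25524 genes. The submitters' notes name bcl2fastq, FastQC, TopHat2, and edgeR; the genome build, the counting tool, its strand setting, and its rule for reads with several matches are not given in the sources used here. Each table holds 1 column of no described sample (2 in all), which was not used. The totals of 13748887 to 38302461 reads limit the precision of genes with few reads.

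Comparisons over 3 days or 4 treatments used the quasi-likelihood test of edgeR 4.0.16 in R 4.3.3 on the counts of all genes, with TMM, filterByExpr, day and treatment as terms, and Benjamini-Hochberg adjustment at 0.05. Here days or treatments stand in as replicates, so that a treatment effect unequal between days adds to the spread. The fits were tried on simulated counts with the same dispersion for all genes and effects equal on all days. The intervals were tried on simulated counts with counting error only. These settings are simpler than those of the members, so that they do not show how the fits behave for them. Pairs of libraries were given as ratios of TMM-scaled reads, with a floor of 3 reads, at least 10 reads in the pair, and exact Clopper-Pearson intervals at 95% (scipy 1.17.1). Alternatives were RLE size factors, library size, DESeq2 1.42.0, limma 3.58.1 on log2(FPKM + 1) and log2(FPKM + 0.1), other filters and folds, and left-out days, treatments, or libraries. The named genes are the 13 hair keratins, the 3 KAPs with the highest mean FPKM, and the widest and narrowest range on each day. The top 2 of the sheath, regulator, and accessory lists and the top keratinocyte marker are named too. Other KAPs, regulators, and keratinocyte markers, and genes called in an alternative fit, were named after their values were seen. A class by protein composition was planned and not computed, since no protein table was used here. The members and lists were chosen with earlier results of these data known. Promoters are RefSeq's for GRCr8, and 41 of the 42 symbols were found in its gene table.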

Additional observations from a re-analysis of the deposited data

How the results depend on the processing

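The count of members called by edgeR, 0 in all 6 comparisons, was 1 for d-SMG (*Krt35*), 31 for s-GAG, and 23 for Alg with DESeq2 (9, 290, and 88 of all 16110 genes). With only the groups compared it was 4 for s-GAG (*Krt33b*, *Krt35*, *Krt36*, and *Krt81*) and 5 for Alg (*Krt84*, *Krtap3-2*, *Krtap3-3*, *Krtap7-1*, and *Krtap8-1*), beside 12 of 15798 and 9 of 15503 genes. Without the library d-SMG day 3, a choice made after seeing the data like the omission of Alg day 14 and s-GAG day 14, it was 3 for s-GAG, beside 66 of 16104 genes. It stayed at 0 with RLE size factors, library size, no low-count filter, limma on FPKM, no block for the day or treatment, and each day or treatment left out. For members at least 4-fold higher than the control, a minimum of 50 reads gave 12 in place of 22 for Alg on day 3, 4 in place of 10 for Alg on day 7, and 5 in place of 13 for d-SMG on day 14. A threshold of 8-fold gave 5 for Alg on day 7 and 7 for d-SMG on day 14. The higher minimum leaves fewer genes to compare, and the cause of the other shifts was not tested. The order of the 12 libraries by summed FPKM and by share of reads was the same for 10, with d-SMG day 7 and day 14 exchanged. The sign of the median for day 7 against day 3 turned without d-SMG day 3, and depth leaves KAPs with few reads unresolved.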
